A study of Mus musculus with 8 samples.

Results

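The expression differences between Smurf2-/- and wild-type mouse embryonic fibroblasts (MEFs) at early passage were examined on 4 of the 8 arrays of the series. MEFs are primary cells of the embryo's connective tissue, propagated in culture by serial passage. The groups were Smurf2-/- C57B6 MEFs at passage 7 from 1 embryo, Smurf2-/- mixed BL MEFs at passage 6 from a mix of 3 embryos, wild-type C57B6 MEFs at passage 7 from 1 embryo, and wild-type mixed BL MEFs at passage 6 from a mix of 2 embryos. Mixed BL is a cross of 129SVJ and NIH Black Swiss mice. The other 4 arrays held MEFs of the same genotypes and backgrounds at a late passage, 28 in C57B6 and 33 in mixed BL. The sample descriptions give embryonic day 14.5 and the growth protocol day 11.5, and the labels name neither the sex of any embryo nor whether early and late arrays came from the same culture. All cultures were grown in Dulbecco's medium with fetal bovine serum, and no group carried a further allele or treatment per the labels.

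Within each background the wild-type array was subtracted from the Smurf2-/- array. Of 16906 autosomal genes with a single symbol, those that differed at least 1.5-fold in the same direction in both backgrounds were taken, a log2 difference of 0.585 or more in size in each pair. There were 83 such genes, 22 higher and 61 lower in Smurf2-/- MEFs, Smurf2 itself among the lower ones. Every level below is a log2 value relative to the gene's own median over the 8 arrays, so that no comparison of level between genes is possible, and every difference is Smurf2-/- minus wild-type on the log2 scale. Each combination had 1 array, and the spread between independent cultures of a combination was therefore not measured. Unless stated otherwise, each standard error (SE) and p-value comes from a fit of all 8 arrays. Disagreement between backgrounds at late passage thus enters the spread given for early differences. Across autosomal genes the early pair differences had an SD of 0.29 in C57B6 and 0.21 in mixed BL. The late ones had an SD of 0.5 and 0.48. In RNA of whole cultures, fewer cells of a type and less RNA per cell cannot be told apart.

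Smurf2 encodes a ubiquitin ligase of the NEDD4 family, with a C2 domain, WW domains that bind PY motifs, and a catalytic HECT domain. It is known for marking receptor-regulated Smads and, recruited by inhibitory Smad7, TGF-beta receptors for degradation, and so for tuning signals of the TGF-beta and bone morphogenetic protein (BMP) families. It also targets Rnf20, the ligase that places ubiquitin on histone H2B. In fibroblasts Smurf2 is known from studies of replicative senescence, the arrest that primary cells enter after repeated passage.

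The targeted gene was lower in both Smurf2-/- arrays. Smurf2 stood at -0.43 in Smurf2-/- C57B6 and -0.70 in Smurf2-/- mixed BL MEFs, against 0.71 in wild-type C57B6 and 0.96 in wild-type mixed BL MEFs. The genotypes did not overlap, with differences of -1.14 in C57B6 and -1.67 in mixed BL (mean -1.40 ± 0.15 SE, limma adjusted p = 0.953), and both transcript clusters of the gene had the same direction. Which exons the disrupted allele lacks is not given in the sources used here, so the array shows less signal, not the absence of a transcript.

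Sex-linked genes moved with genotype in these 4 arrays. Xist, the RNA that coats the inactive X chromosome of female cells, stood at -1.94 in Smurf2-/- C57B6 and -1.53 in Smurf2-/- mixed BL MEFs, against 3.20 and 1.53 in the wild-type C57B6 and mixed BL arrays. Uty, a Y-linked histone demethylase gene, stood at 1.67 and 1.51 in the Smurf2-/- arrays, against -1.06 and -0.99 in the wild-type arrays. Embryo sex and genotype therefore cannot be told apart in any early difference given here, and genes of the X and Y chromosomes are not counted among the 83.

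Over the whole array the early contrast gave 1 feature past the threshold. With limma and Benjamini-Hochberg adjustment over 22536 features, 0.00444% were called, and the called gene was Uty (2.62 ± 0.10 SE, adjusted p = 0.0395). No autosomal gene was called, and 195 of 16906 had an unadjusted p under 0.05 in the same limma fit. With no difference in any gene, a share near 0.05 would have such a p, and the share found was lower. When the 4 early arrays were fitted alone, 0 features were called and 1028 autosomal genes, a share above 0.05, had an unadjusted p under 0.05. The adjusted p of the 83 genes lay between 0.577 (Bmp5) and 1.0. With the pairing by background set aside, 2 arrays against 2 cannot give an exact two-sided permutation p below 0.333. Permuting within backgrounds would allow fewer arrangements still. The 83 genes are thus described by values that recur in both backgrounds, and none of them passed a test.

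The share of all autosomal genes taken was 0.13% in the higher and 0.361% in the lower direction, and 0.355% (60 genes) differed at least 1.5-fold in opposite directions in the backgrounds. In either direction, 735 genes differed at least 1.5-fold in the C57B6 pair and 384 in the mixed BL pair. Signs matched in 9128 of 16906 genes (54.0%), and across genes, which are not independent replicates, the pair differences correlated at r = 0.13. The threshold was crossed narrowly by some genes. Hoxb9 (0.68 in C57B6, 0.61 in mixed BL) and Pakap (-0.59, -0.80) were just inside it, whereas Mmd (0.56, 0.60), Slc6a17 (1.05, 0.56), Sprr1a (0.56, 1.07), Mkx (-0.62, -0.58), Elovl7 (-0.66, -0.58) and Ccdc141 (-0.66, -0.58) were just outside.

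**Figure D1:**
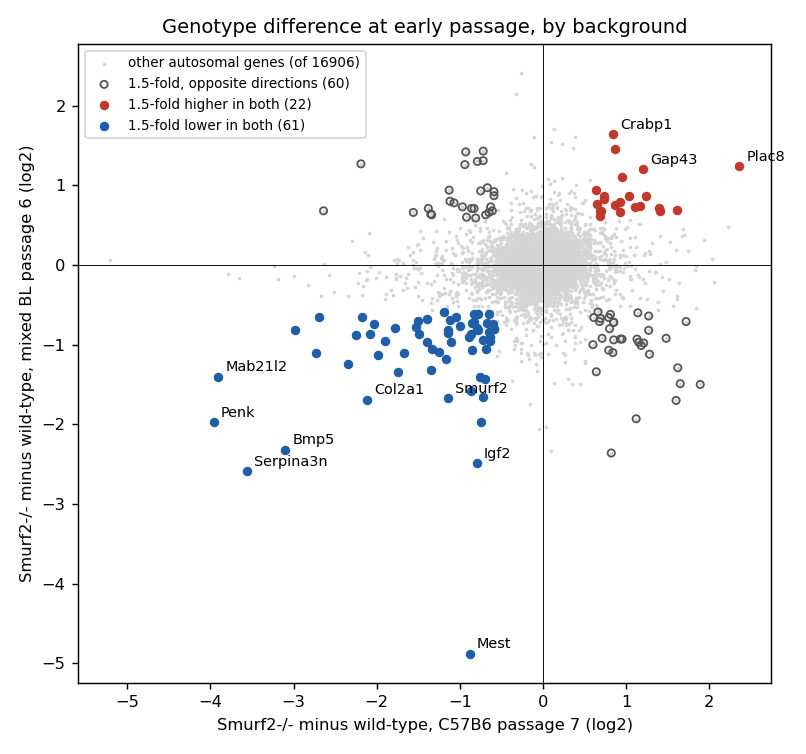
Difference between Smurf2-/- and wild-type MEFs in the C57B6 pair (horizontal axis, log2) against the mixed BL pair (vertical axis, log2), 1 point per autosomal gene, with the 22 higher and 61 lower genes coloured. The coloured genes lie beyond 0.585 on both axes, and Serpina3n (-3.56, -2.59) and Bmp5 (-3.10, -2.32) lie farthest toward the lower left by the smaller of their differences.

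The 83 genes are taken below by known role, assigned after their values were seen, and no role was tested for being more frequent among them than among other genes. Serpina3n, the first of the lower genes, is a secreted serine protease inhibitor of the acute phase response and stood at 0.32 in Smurf2-/- C57B6 and -0.46 in Smurf2-/- mixed BL MEFs, against 3.89 and 2.13 in the wild-type arrays of these backgrounds. Both Smurf2-/- arrays were below both wild-type arrays, with differences of -3.56 and -2.59 (mean -3.08 ± 1.34 SE, limma adjusted p = 1.0). Bmp5, a BMP family ligand that acts in skeletal and limb patterning, stood at 0.15 and 0.12 in the Smurf2-/- arrays, against 3.25 and 2.44 in the wild-type arrays. The Smurf2-/- arrays were nearly level with each other and below both wild-type arrays, which lay farther apart, and the difference of -2.71 ± 0.25 SE had the lowest adjusted p of the 83 genes, 0.577 by limma. Penk, the precursor of enkephalin peptides, stood at -0.98 and 0.24 in the Smurf2-/- arrays, against 2.98 and 2.20 in the wild-type arrays. Again the genotypes did not overlap (-2.97 ± 0.70 SE, limma adjusted p = 1.0).

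Lower genes with roles in cartilage and matrix are given next. None of the genes named here is in the extracellular matrix list, so its counts do not include them. In that list 8 of 30 genes were higher and 7 lower in both pairs, and 0 passed 1.5-fold in both. Col2a1, the collagen of cartilage, stood at 0.02 in Smurf2-/- C57B6 and -1.71 in Smurf2-/- mixed BL MEFs, against 2.14 and -0.02 in the wild-type arrays of these backgrounds. Here the Smurf2-/- C57B6 array lay above the wild-type mixed BL array, so the genotypes overlapped although each pair differed, by -2.12 and -1.69. Islr, an immunoglobulin-like protein of stromal cells, differed by -2.73 in C57B6 and -1.11 in mixed BL. Abi3bp, a matrix protein that binds collagen, differed by -1.67 and -1.10. The small leucine-rich proteoglycans, which bind collagen fibrils, were represented by Fmod (-0.78, -0.81) and Ogn (-1.53, -0.78). Ccn5, a matricellular protein, stood at -0.51 and -0.55 in the Smurf2-/- arrays, against 1.48 and 0.58 in the wild-type arrays, without overlap. Mmp13, a collagenase of cartilage and bone, differed by -2.08 and -0.87, and Sulf1, which trims sulfate from heparan sulfate, by -0.89 and -0.91. Dlx5, a homeobox factor of bone formation and a BMP target, stood at -0.91 and -1.35 in the Smurf2-/- arrays, against -0.04 and 0.23 in the wild-type arrays.

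Of the 61 lower genes, Sfrp4, Lgr5, Fzd1 and Tle1 act in the Wnt pathway, for which no list was counted. Sfrp4, a secreted antagonist that binds Wnt ligands, stood at 0.40 in Smurf2-/- C57B6 and -0.47 in Smurf2-/- mixed BL MEFs, against 2.74 and 0.77 in the wild-type arrays of these backgrounds. Lgr5, a receptor for R-spondins, which strengthen Wnt signals, stood at -0.48 and 0.89 in the Smurf2-/- arrays, against 0.86 and 1.95 in the wild-type arrays. The Sfrp4 genotypes did not overlap, whereas for Lgr5 the Smurf2-/- mixed BL array and the wild-type C57B6 array were nearly level. Fzd1, a Wnt receptor, differed by -0.60 in C57B6 and -0.74 in mixed BL, and Tle1, a corepressor that acts with TCF factors, by -0.78 and -0.61.

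Growth factor and imprinted genes followed, although in the imprinted list 4 of 20 genes were higher and 9 lower in both pairs. Igf2, the paternally expressed insulin-like growth factor, stood at -1.09 in Smurf2-/- C57B6 and -0.50 in Smurf2-/- mixed BL MEFs, against -0.29 and 1.98 in the wild-type arrays of these backgrounds. Mest, another paternally expressed imprinted gene, stood at -0.11 and -4.60 in the Smurf2-/- arrays, against 0.76 and 0.27 in the wild-type arrays. Its mixed BL difference of -4.88, the largest of the lower genes in that background, came from 1 array far below the other 3. Peg3, a paternally expressed zinc finger gene, differed by -0.65 in C57B6 and -0.84 in mixed BL. Igfbp5, a binding protein that modulates insulin-like growth factors, differed by -2.03 and -0.74, and Angpt1, a ligand of the endothelial receptor Tek, by -1.19 and -0.59.

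Several lower genes encode factors that pattern embryonic tissues. Mab21l2, which acts in eye and body wall development, stood at -0.88 in Smurf2-/- C57B6 and -0.07 in Smurf2-/- mixed BL MEFs, against 3.04 and 1.33 in the wild-type arrays of these backgrounds. The genotypes did not overlap, and the differences were -3.91 and -1.40. The nuclear receptor Nr2f1 differed by -1.90 and -0.96. The forkhead factors Foxc1 (-0.86, -1.07) and Foxd1 (-0.72, -0.94), both of mesenchyme, and Eya1 (-1.78, -0.79), a transcriptional coactivator and phosphatase, were lower too. Ahr, the aryl hydrocarbon receptor that senses foreign compounds, differed by -1.14 and -0.82.

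Some lower genes act in innate immunity or cell death, roles that also occurred among the higher genes. Il1rn, the antagonist of the interleukin-1 receptor, stood at 1.00 in Smurf2-/- C57B6 and -1.69 in Smurf2-/- mixed BL MEFs, against 2.74 and -0.35 in the wild-type arrays of these backgrounds. Its level differed more between backgrounds than between genotypes, and the genotypes overlapped. Tlr4, the receptor for bacterial lipopolysaccharide, stood at -0.50 and -0.15 in the Smurf2-/- arrays, against 0.51 and 0.61 in the wild-type arrays. Fas, a death receptor and p53 target, stood at -0.09 and 0.22 in the Smurf2-/- arrays, against 0.96 and 0.88 in the wild-type arrays. Neither Tlr4 nor Fas overlapped between genotypes. The chemokine gene Ppbp differed by -1.14 and -0.85, the secreted chaperone clusterin, Clu, by -2.70 and -0.65, the interferon-induced Rtp4 by -1.12 and -0.69, and Mcpt8, a protease of basophils, by -0.64 and -0.91.

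The neighbouring genes Tmem176a and Tmem176b, which encode related membrane proteins of immune cells and other tissues, were lower together. Tmem176b stood at -0.16 in Smurf2-/- C57B6 and -1.42 in Smurf2-/- mixed BL MEFs, against 1.19 and -0.10 in the wild-type arrays of these backgrounds, and Tmem176a differed by -1.39 and -0.97. The aldehyde dehydrogenase Aldh1a1, which makes retinoic acid, differed by -2.25 in C57B6 and -0.88 in mixed BL, and Aldh1a7 by -2.98 and -0.81. Aldh1a1 and Aldh1a7 are close paralogs, and how far their probes share signal was not tested. Peptidase genes were Cpa4 (-1.17, -1.18), a carboxypeptidase, Mme (-0.87, -0.86), the neprilysin gene, Enpep (-1.39, -0.68), an aminopeptidase that acts on angiotensin, and the lysosomal Ctsh (-0.83, -0.71). Metabolic genes were Pdk4 (-1.50, -0.70), which restrains pyruvate dehydrogenase, Cdo1 (-0.64, -0.95), which oxidises cysteine, Ampd3 (-0.65, -0.62), an AMP deaminase, and the enolase Eno2 (-0.86, -0.73).

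The remaining lower genes were a mixed set. Adgrg6, an adhesion receptor known from myelination, stood at 0.31 in Smurf2-/- C57B6 and -0.98 in Smurf2-/- mixed BL MEFs, against 1.55 and 0.11 in the wild-type arrays of these backgrounds. The water channel Aqp1 differed by -0.75 and -1.97, the protocadherin Pcdhb16 by -1.11 and -0.97, the scavenger receptor Scara3 by -0.68 and -0.73 and the phospholipid scramblase Plscr2 by -0.76 and -1.40. Pcdhb16 belongs to a cluster of similar genes, so that its signal may not be its own. Sorbs2, an adaptor of the actin cytoskeleton, differed by -0.72 and -1.66, and Palmd, of the paralemmin family, by -2.18 and -0.65. Hid1 (-1.49, -0.87), Glipr1 (-0.70, -1.43), Scrn1 (-0.69, -1.05), Fam13c (-0.79, -0.79), Tmtc1 (-0.83, -0.62), Clmn (-0.59, -0.80) and Pakap completed the 61.

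Among the higher genes, Plac8 came first. Plac8, a small cysteine-rich protein first described in placenta, stood at 1.95 in Smurf2-/- C57B6 and 1.92 in Smurf2-/- mixed BL MEFs, against -0.41 and 0.68 in the wild-type arrays of these backgrounds. Both Smurf2-/- arrays were above both wild-type arrays, by 2.36 and 1.24 within the pairs (mean 1.80 ± 0.37 SE, limma adjusted p = 1.0). Some of the higher genes are known from neurons, but those named next are not in the neural and glial marker list, so its counts do not include them. In that list 4 of 14 genes were higher and 1 lower in both pairs, and 0 passed 1.5-fold in both. The share of higher genes in the list was near that of all autosomal genes. Gap43, a growth cone protein, stood at -0.42 and 0.48 in the Smurf2-/- arrays, against -1.62 and -0.72 in the wild-type arrays, a difference of 1.20 in each pair without overlap. Ptprn, a phosphatase-like protein of secretory granules, stood at 0.07 and 1.03, against -0.88 and -0.07 in the wild-type arrays, and did not overlap either. Crabp1, which binds retinoic acid in the cytoplasm, stood at 0.17 in Smurf2-/- C57B6 and 3.07 in Smurf2-/- mixed BL MEFs, against -0.68 and 1.42 in the wild-type arrays. Its genotypes overlapped because both mixed BL arrays were high. Cck, the cholecystokinin hormone and neuropeptide, differed by 1.61 and 0.69, and Map1b, a microtubule-binding protein of axons, by 0.93 and 0.67.

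Some secreted, adhesion and cytoskeletal genes were higher as well, roles that also occurred among the lower genes. Igfbp6, a binding protein with a preference for insulin-like growth factor II, stood at 0.43 in Smurf2-/- C57B6 and 2.91 in Smurf2-/- mixed BL MEFs, against -0.43 and 1.45 in the wild-type arrays of these backgrounds, so that the backgrounds again differed more than the genotypes. The metalloproteinase Adam19 differed by 1.16 and 0.74, the secreted serine protease Htra1 by 1.11 and 0.73, P-cadherin (Cdh3) by 0.73 and 0.83, the guidance ligand Slit3 by 0.70 and 0.68, and Thsd7a, with thrombospondin repeats, by 1.41 and 0.68. Cap2, an actin-regulating protein, stood at 1.01 and 0.96 in the Smurf2-/- arrays, against -0.23 and 0.09 in the wild-type arrays. Actg2, the gamma actin of enteric smooth muscle, stood at 0.15 and 0.34 in the Smurf2-/- arrays, against -0.71 and -0.41 in the wild-type arrays. Neither Cap2 nor Actg2 overlapped between genotypes.

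Trim25, Tnfaip2 and Ripk3, also higher, act in innate immunity or cell death. Trim25, the ubiquitin ligase that activates the RNA sensor RIG-I, stood at 0.67 in Smurf2-/- C57B6 and 1.22 in Smurf2-/- mixed BL MEFs, against -0.36 and 0.36 in the wild-type arrays of these backgrounds. Tnfaip2, induced by tumour necrosis factor, stood at 0.84 and 0.88 in the Smurf2-/- arrays, against -0.09 and 0.09 in the wild-type arrays. Ripk3, the kinase of necroptosis, differed by 0.73 and 0.86. The genotypes were separate for Trim25 and Tnfaip2 and overlapped for Ripk3, with the wild-type mixed BL array above the Smurf2-/- C57B6 array. Abca5 (1.39, 0.72), a lipid transporter, Bag2 (0.69, 0.68), a cochaperone, Hhipl1 (0.65, 0.76), Pde3b (0.64, 0.94), a phosphodiesterase, and Hoxb9, a positional homeobox gene, completed the 22.

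**Figure D2:**
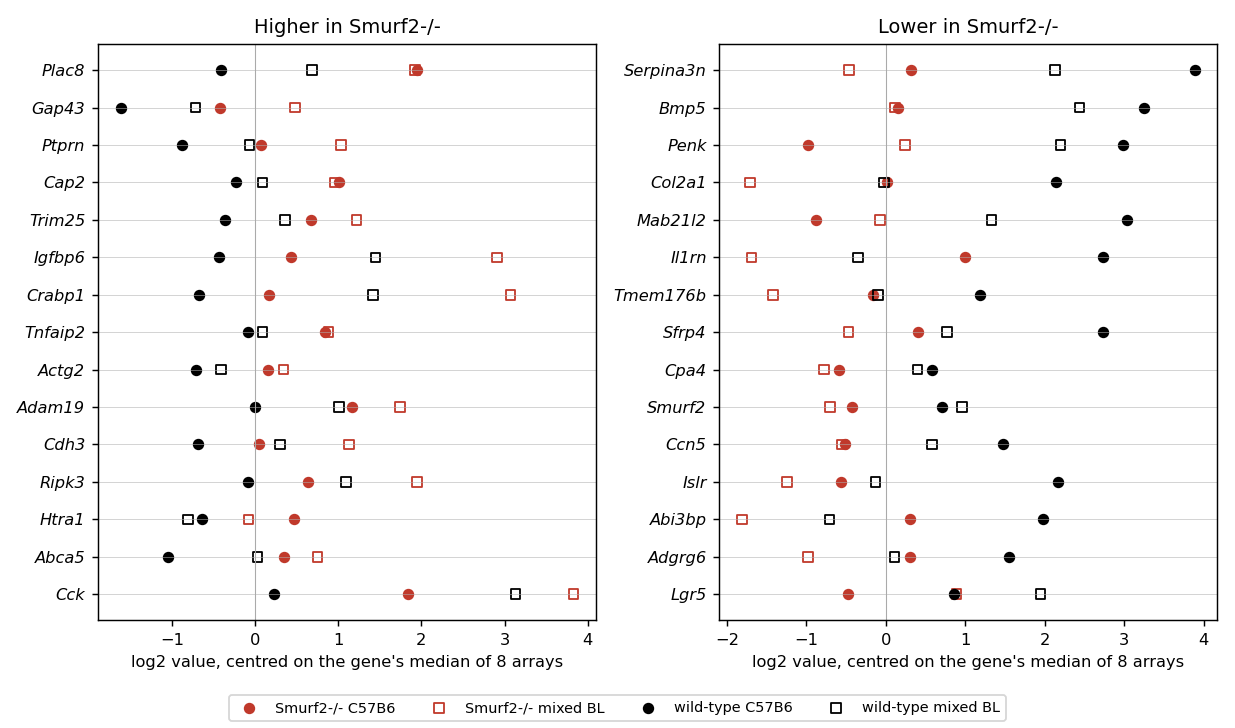
Value on each of the 4 early arrays (horizontal axis, log2 relative to the gene's median over the 8 arrays) for the 15 higher genes (left) and the 15 lower genes (right) with the largest smaller difference, 1 point per array, Smurf2-/- in red and wild-type in black. The wild-type C57B6 array is the lowest point in most rows on the left and the highest in most rows on the right.

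The arrays contributed unequally. Over the 22 higher genes, 14 had both Smurf2-/- arrays above both wild-type arrays, and over the 61 lower genes 37 had both below, where 12.0% and 10.7% of all autosomal genes had those arrangements. The choice of genes favours such arrangements, so the counts are a description. Among the 61 lower genes, the wild-type C57B6 array was the highest of the 4 early arrays in 50, and the highest of all 8 arrays in 35 (57.4%, against 10.8% of all autosomal genes). The Smurf2-/- mixed BL array was the lowest of the 4 in 48. Among the 22 higher genes, the wild-type C57B6 array was the lowest of the 4 in 21, and the Smurf2-/- mixed BL array was the highest of all 8 in 12 (54.5%, against 9.81%). In the limma fit without the wild-type C57B6 early array, all 22 higher genes and 56 of the 61 lower genes kept their direction, with medians of 0.67 and -0.83 against 0.93 and -1.16 with all 8 arrays. Without the Smurf2-/- mixed BL early array, 21 and 58 kept it, with medians of 0.76 and -0.86. Such a fit estimates the early difference from the remaining early arrays and the late arrays of both backgrounds.

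The late arrays were not used in choosing the 83 genes. Of the 61 lower genes, 39 (63.9%) were lower in Smurf2-/- MEFs in both late pairs and 25 (41.0%) at least 1.5-fold lower in both, beside 22.8% and 2.24% of all autosomal genes. Of the 22 higher genes, 8 (36.4%) were higher in both late pairs and 2, Slit3 and Thsd7a, at least 1.5-fold higher in both, beside 28.4% and 1.56% of all autosomal genes. These shares carry no test, because early and late arrays may be of the same culture. In that case embryo sex and genotype cannot be told apart in the late pairs either. The 60 genes that differed in opposite directions at early passage give a further measure for the late shares. Of these, 31 (51.7%) were lower in both late pairs and 17 (28.3%) at least 1.5-fold lower in both, while 12 of the 60 were higher in both and 3 (5.0%) at least 1.5-fold higher in both.

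Lower genes that kept their direction past 1.5-fold in both late pairs included Col2a1 (-2.76 in late C57B6, -1.96 in late mixed BL), Abi3bp (-3.76, -3.35), Ccn5 (-2.49, -1.51), Eya1 (-2.71, -3.16), Igf2 (-1.60, -3.33), Mest (-3.25, -1.99), Cdo1 (-2.15, -2.83), Il1rn (-0.89, -1.85) and Fas (-1.18, -0.84). Bmp5, by contrast, was at 0.25 and -0.12 in the late pairs, and Serpina3n at 0.73 and -3.60. Penk was higher in both late pairs, by 0.23 and 2.56, and so were Angpt1, Ampd3 and Mcpt8. Among the higher genes, Slit3 differed by 1.13 and 2.94 and Thsd7a by 0.93 and 1.00 in the late pairs, while Plac8 was at 0.17 and -0.99 and Gap43 at 3.18 and 0.16. Cck and Bag2 were slightly lower in both late pairs, Cck by -0.08 and -0.15.

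Whether early and late genotype differences themselves differed was tested as an interaction in the 8-array limma fit, and 0.0% of the features (0 of 22536) were called. An unadjusted p under 0.05 was found for 1114, a share under the 0.05 that no difference would give. The lowest adjusted p was 0.456. The late minus early difference was 4.36 ± 0.99 SE (adjusted p = 0.873) for Penk and 2.78 ± 0.35 SE (adjusted p = 0.841) for Bmp5 by limma. No gene is therefore shown to differ between passages, which is not evidence that the differences were equal.

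**Figure D3:**
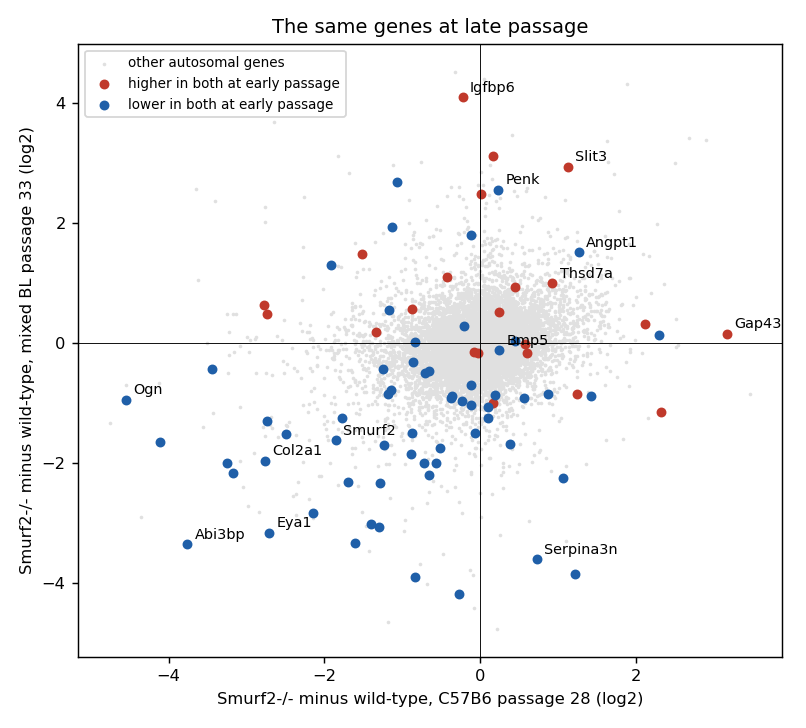
Difference between Smurf2-/- and wild-type MEFs at late passage in the C57B6 pair (horizontal axis, log2) against the mixed BL pair (vertical axis, log2), 1 point per autosomal gene, with the 22 genes higher at early passage in red and the 61 lower in blue. Blue points such as Abi3bp (-3.76, -3.35) fill the lower left, the red points spread to all sides, and Penk (0.23, 2.56) lies in the upper right.

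The backgrounds also differed from each other. Of the 60 genes with opposite directions, 33 were higher in Smurf2-/- C57B6 MEFs and 27 in Smurf2-/- mixed BL MEFs. Tgfb3, a TGF-beta ligand, stood at 1.39 in Smurf2-/- C57B6 and -0.48 in Smurf2-/- mixed BL MEFs, against -0.26 and 1.01 in the wild-type arrays of these backgrounds, a difference of 1.65 in C57B6 and -1.49 in mixed BL. Pdgfra, the receptor for platelet-derived growth factor that marks many fibroblasts, stood at -0.83 and 1.17 in the Smurf2-/- arrays, against 1.35 and -0.10 in the wild-type arrays, and so differed by -2.19 and 1.27. These genes had high and low arrays in both genotypes, and at early passage alone the difference between backgrounds has no residual degrees of freedom. Taken over both passages as an added genotype by background term in the 8-array limma fit, it was called for 0.0% of the features (0 of 22536). An unadjusted p under 0.05 was found for 711, again a share under 0.05, and every adjusted p was 0.977 or more.

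Genes of the pathways tied to Smurf2 were counted with no regard to size, and 28.1% of all autosomal genes were higher and 25.9% lower in both early pairs. None of the autosomal lists named here held a gene called by limma. Of 22 TGF-beta and Smad target genes measured, 3 were higher and 4 lower in both pairs, and the median of their mean differences was 0.01. Of 18 BMP and Id target genes, 4 were higher and 4 lower (median -0.07), with Id4 at 0.31 and 0.54, Dlx5 as above and Atoh8 at -0.43 and -0.26. Of 18 Smad family and receptor genes, 3 were higher and 7 lower (median -0.06), among them Tgfbr2 (-0.77, -0.22), the ligand-binding TGF-beta receptor, Smad3 (-0.25, -0.37), a receptor-regulated Smad, and Bmpr1a (-0.16, -0.21), whereas Bmpr1b was higher (0.60, 0.45). Of 13 H2B ubiquitination genes, 2 were higher and 7 lower in both pairs (median -0.07), some by next to nothing. Among single genes of the pathway, the paralog Smurf1 differed by 0.13 in C57B6 and 0.06 in mixed BL, Rnf20 by 0.16 and -0.27, and the Smad-responsive Id2 by -0.41 and -0.43 (mean -0.42 ± 0.15 SE). Of 24 p53 target genes, 12 were lower and 2 higher in both pairs (median -0.12), including Fas, Trp53inp1 (-0.78, -0.26), Btg2 (-0.74, -0.26) and Pmaip1 (-0.16, -0.65). Mdm2, the ligase that restrains p53, was at -0.24 and -0.01, and Cdkn2a, which encodes p16 and Arf, at -0.16 and 0.09.

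Lists for growth, metabolism and tissue type showed small medians. DNA replication genes were higher in both pairs in 13 of 22 and lower in 1 (median 0.11), for example Cdt1 (0.20, 0.28) and Gins2 (0.20, 0.19). Mitosis genes were higher in 11 of 22 and lower in 2 (median 0.08), for example Aurka (0.41, 0.20). In glycolysis and hypoxia, 11 of 21 genes were higher and 2 lower (median 0.16), with Slc2a1, a glucose transporter, at 0.68 and 0.27. Serine, glycine and folate genes were higher in 9 of 20 and lower in 1 (median 0.25), with Mthfd1l at 0.41 and 0.65 and Sardh, which was lower, at -0.81 and -0.44. Hox genes, which mark position along the body axis, were higher in 20 of 37 and lower in 3 (median 0.08), with Hoxc6 at 0.57 and 0.52. Contractile genes were higher in 7 of 17 and lower in 1 (median 0.20), with Tpm2 at 1.22 and 0.15. The median of this list was 0.43 in C57B6 and -0.05 in mixed BL. Of the interferon response genes, 10 of 19 were lower and 3 higher (median -0.20), with a median of -0.29 in C57B6 and -0.01 in mixed BL. Of the imprinted genes, 9 of 20 were lower and 4 higher in both pairs (median 0.00). Igf2, Mest and Peg3 were at least 1.5-fold lower in both pairs, and Slc38a4 was among the higher ones (1.48, 0.04).

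Markers of other cell types were read beside the lower and higher genes. Because levels are centred, whether a marker was present or at 0 in a group cannot be read from them, and only differences are given. Cartilage and bone markers were lower in both pairs in 10 of 16 and higher in 0 (62.5%, median -0.13), including Col2a1, Matn3 (-0.67, -0.57) and Sox6 (-1.25, -0.35). The median of this list was -0.29 in C57B6 and -0.04 in mixed BL. Several of the 10 were near 0 in mixed BL, such as Acan (-1.48, -0.04), and Sox9 was at -1.76 and 0.02. Skeletal muscle markers were higher in both pairs in 13 of 24 and lower in 1 (median 0.05), with Des at 0.24 and 0.16. Endothelial markers were higher in 7 of 15 and lower in 0 (median 0.05), with Flt1 at 0.38 and 0.85 and Emcn at 0.17 and 0.73. Others differed little, such as Pecam1 (0.0, 0.03) and Cdh5 (0.09, 0.03), or had opposite signs, such as Kdr (0.13, -0.01) and Tek (0.06, -0.06). Macrophage and leukocyte markers were lower in 6 of 18 and higher in 3 (median -0.04), with Cd68 at -0.49 and -0.24. Fibroblast markers were higher in 3 and lower in 3 of 15 (median 0.01). The part of cell composition in the 83 genes was not tested.

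**Figure D4:**
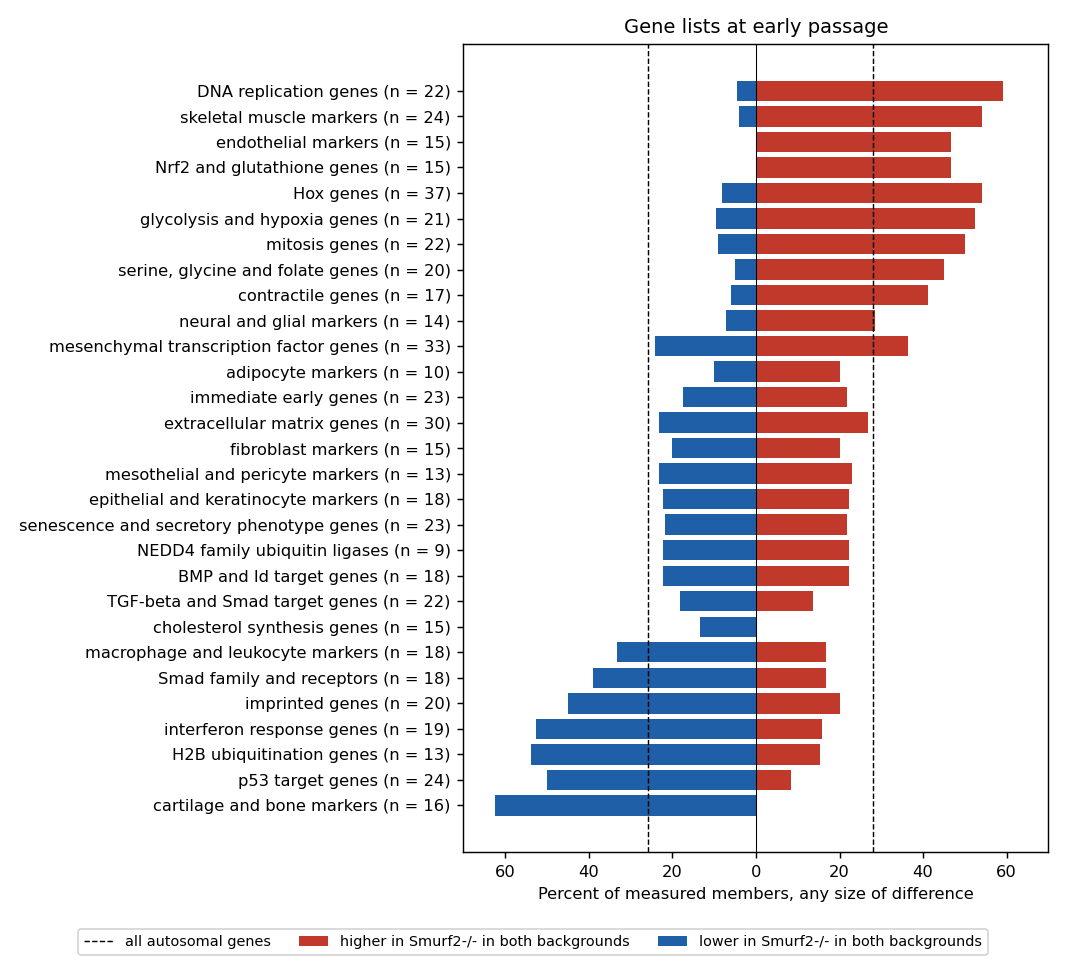
Percent of each list's measured members that were higher in Smurf2-/- MEFs in both early pairs (right, red) or lower in both (left, blue), at any size of difference, with dashed lines at the shares of all autosomal genes (28.1% and 25.9%). Cartilage and bone markers and p53 targets extend left, and DNA replication genes and Hox genes extend right.

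Beyond the restriction to autosomes, position was not used in choosing the genes. The 10 measured genes on each side of Smurf2 on chromosome 11 included 5 higher and 5 lower in both early pairs. These counts used rounded differences. A gene rounded to 0.0 in a pair, such as Pecam1 (0.0 in C57B6, 0.03 in mixed BL), entered neither. Of the same genes 0 were past 1.5-fold in both, with differences between -1.04 (Pitpnc1) and 0.28 in C57B6 and between -0.13 and 0.21 in mixed BL. The nearest of the 83 genes, Abca5, lay 28 measured genes from Smurf2. Of the 22 higher genes, 5 were on chromosome 11, which holds 8.73% of the autosomal genes, and of the 61 lower genes 10 were on chromosome 6, which holds 5.32%, and this placement was not tested.

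Promoters were examined because the genes of a direction were chosen together and Smurf2 acts on Smads, which bind the letters CAGAC (the Smad box, counted on both strands, so also as GTCTG) and GGCGCC (a BMP-responsive element, which is its own reverse complement). Promoters of 250 bases before to 50 after the start, from RefSeq with build GRCm38.p6, were listed for 17 of the 22 higher and 39 of the 61 lower genes. CAGAC was in 11 of 21 promoters of the higher genes (52.4%) and 33 of 62 of the lower genes (53.2%), against 49.1% of the 16546 promoters of all autosomal genes. GGCGCC was in 5 (23.8%) and 12 (19.4%), against 18.2%. The first listed promoters of the 2 highest-ranked genes per direction with an entry, Smurf2 left aside, are shown so that the letters can be seen in place, with CAGAC or GTCTG in capitals, 5′ to 3′ on the gene's strand. They lie at chr5:100572156-100572455 on the minus strand for Plac8, chr1:75264159-75264458 on the minus strand for Ptprn, chr12:104406458-104406757 on the plus strand for Serpina3n and chr9:75775115-75775414 on the plus strand for Bmp5.
Plac8: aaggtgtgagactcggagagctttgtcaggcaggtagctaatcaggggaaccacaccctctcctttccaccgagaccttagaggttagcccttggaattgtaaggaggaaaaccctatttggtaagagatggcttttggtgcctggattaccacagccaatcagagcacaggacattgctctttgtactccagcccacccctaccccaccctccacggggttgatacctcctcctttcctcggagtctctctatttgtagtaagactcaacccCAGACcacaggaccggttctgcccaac
Ptprn: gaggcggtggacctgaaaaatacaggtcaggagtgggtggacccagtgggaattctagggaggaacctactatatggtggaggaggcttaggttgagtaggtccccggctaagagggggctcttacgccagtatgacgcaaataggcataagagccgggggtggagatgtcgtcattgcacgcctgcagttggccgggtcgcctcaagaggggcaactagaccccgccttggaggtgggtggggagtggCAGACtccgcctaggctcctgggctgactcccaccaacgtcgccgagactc
Serpina3n: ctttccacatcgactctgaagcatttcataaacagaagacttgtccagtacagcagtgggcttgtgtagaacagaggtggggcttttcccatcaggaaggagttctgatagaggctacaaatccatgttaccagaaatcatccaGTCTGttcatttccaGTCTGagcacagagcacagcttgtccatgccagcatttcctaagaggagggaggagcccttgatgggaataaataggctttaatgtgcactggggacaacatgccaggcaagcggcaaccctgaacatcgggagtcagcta
Bmp5: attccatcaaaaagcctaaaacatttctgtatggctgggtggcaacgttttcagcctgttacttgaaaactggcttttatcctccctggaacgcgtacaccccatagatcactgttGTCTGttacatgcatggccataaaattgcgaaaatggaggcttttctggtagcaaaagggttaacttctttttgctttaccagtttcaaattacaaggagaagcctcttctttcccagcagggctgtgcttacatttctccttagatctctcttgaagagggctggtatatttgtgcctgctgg
In the promoters shown, the Smad box letters occurred once in Plac8, Ptprn and Bmp5 and at 2 places in Serpina3n, and GGCGCC in none of these 4. Plac8 and Ptprn each had 2 promoters listed, of which only the first is shown. A match is a string of letters and was not tested as a binding site, and the absence of a match says only that the letters are not in this window.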

How the data were processed

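RNA of 8 MEF cultures was hybridised to Affymetrix arrays, 1 per combination of genotype, background and passage class. The deposited values are log2 and were centred before deposit: the median of every transcript cluster across the arrays is 0. How the authors normalised the arrays and summarised probes is not stated in the labels. Builds mm8 and mm9 appear in the submitters' processing notes, with no step named. Names came from a gene-level array's annotation, whose probe identifiers fit the table, although the series is described as an exon array. A single symbol was found for 19134 of 24169 clusters, several for 1230 and none for 3805. Symbols were brought up to date with a RefSeq table of GRCm38.p6 for 19067 clusters.

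Clusters of a gene were averaged (17501 genes, 16906 autosomal), and every other cluster was kept alone, giving 22536 features. These were fitted with limma 3.58.1 (R 4.3.3) with background, passage class, genotype and the genotype by passage interaction, leaving 3 residual degrees of freedom, and adjusted by Benjamini-Hochberg over all features at 0.05. The script was tested on simulated data. The number of arrays limits precision. The spread behind each SE and p-value comes from how far the backgrounds disagreed over the early and late arrays after these terms. It does not come from repeated arrays of a combination. By rule, the 15 genes per direction with the largest smaller pair difference, up to 4 genes per list, the 3 just outside 1.5-fold per side and the 5 with the largest opposite differences per orientation were named. The remaining members were named for their roles after their values were seen. The members and all 31 lists were chosen with earlier results of these data known. Alternatives left out 1 array at a time, or changed the fold threshold, the model terms, the normalisation or the features.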

Additional observations from a re-analysis of the deposited data

Results flagged for a closer look

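The early and late pairs pointed in opposite directions, in both backgrounds, for 2 of the genes with the largest early differences. Cck was higher in both early and slightly lower in both late pairs. Its late differences, -0.08 in C57B6 and -0.15 in mixed BL, were near 0 and between the quartiles of all autosomal genes (-0.14 to 0.24 and -0.18 to 0.12). The late minus early difference of Cck was -1.26 ± 1.13 SE on the log2 scale. Penk was lower in both early and higher in both late pairs (0.23 in C57B6, 2.56 in mixed BL), and the late minus early difference was 4.36 ± 0.99 SE (limma adjusted p = 0.873). Its late C57B6 difference was between the quartiles too.

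For 10 genes the early C57B6 and mixed BL pairs pointed in opposite directions. These differences rest on 1 array per genotype in each background and were not tested at early passage alone; the genotype by background term over both passages, chosen after seeing the data, had a limma adjusted p of 0.977 for each of these genes. The C57B6 difference minus the mixed BL difference was 3.29 on the log2 scale for Nrep, 3.39 for Slco4a1, 3.15 for Tgfb3, 2.91 for Sim2 and 2.40 for Rspo2. In the other orientation it was -3.46 for Pdgfra, -2.07 for Gprc5b, -2.20 for Ccl2, -2.35 for S1pr3 and -1.92 for Ccbe1.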

How the results depend on the processing

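The early genotype contrast called 1 feature, and 0 with the 4 early arrays alone, with a background by passage term added, with a mean-variance trend, with quantile normalisation and with X and Y features left out, where fewer features entered the adjustment. Without 1 array at a time the count lay between 0 and 2; the 2, found on leaving out either late Smurf2-/- array, were Eif2s3y and a cluster with no single symbol. The interaction called 0 under every alternative run. At a 2-fold threshold 2 genes were higher, 15 lower and 8 opposite; at a looser threshold the counts were 124, 186 and 204. With quantile normalisation they were 28, 52 and 84, and 19 of the 22 higher and 46 of the 61 lower genes remained. None of the 83 genes passed under any alternative run.

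Leaving out 1 array at a time turned the fitted early difference of these genes, the cause not being tested: Angpt1 (-1.92 to 0.13), Clmn (-1.64 to 0.24), Crabp1 (-0.18 to 2.67), Enpep (-2.21 to 0.14), Foxd1 (-1.80 to 0.15), Ogn (-2.58 to 0.27), Rtp4 (-2.21 to 0.40), Cdkn2a (-0.12 to 0.05), Hoxc5 (-0.17 to 1.32), Hoxc6 (-0.13 to 1.22), Hoxc8 (-0.37 to 1.56), Id1 (-0.67 to 0.17), Id3 (-0.15 to 0.36), Mdm2 (-0.63 to 0.38), Rnf20 (-0.34 to 0.22), Slc16a3 (-0.48 to 1.44), Smurf1 (-0.04 to 0.23), Sprr1a (-0.21 to 1.84) and Zim1 (-1.92 to 0.23).

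Arrays were paired by background through the background term; the numbers in the labels follow passage class and give no further replicate block. Without the background term 1 feature was called. The planned filter on dim clusters was not run, since the centred values hold no level.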

Other observations

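Lists without a place in the comparisons above gave these counts at early passage, beside 28.1% higher and 25.9% lower over all autosomal genes. Nrf2 and glutathione genes, which protect against oxidants, were higher in Smurf2-/- MEFs in both pairs in 7 of 15 and lower in 0, with Gsta4, a glutathione transferase, at 1.15 in C57B6 and 0.52 in mixed BL. Cholesterol synthesis genes went apart by background, with a median difference of -0.40 in C57B6 and 0.18 in mixed BL. Senescence and secretory phenotype genes were higher in 5 and lower in 5 of 23, and immediate early genes higher in 5 and lower in 4 of 23. Mesenchymal transcription factor genes were higher in 12 and lower in 8 of 33, with Twist2 at 0.47 and 0.78 and Six2 at -0.41 and -0.56. Epithelial and keratinocyte markers were higher in 4 and lower in 4 of 18, adipocyte markers higher in 2 and lower in 1 of 10, mesothelial and pericyte markers higher in 3 and lower in 3 of 13, and haemoglobin and erythroid markers higher in 2 and lower in 1 of 4.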
